A study of Mus musculus with 35 samples.

Results

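Small neuroblastomas were compared with the hyperplastic sympathetic ganglia of 14-day-old mice, the lesions that precede such tumors, on 4 of the 35 arrays of the series. The members were 2 arrays of small tumors and 2 arrays of day 14 ganglia, chosen by their column labels in the authors' normalized table of the second experiment, which held 11 arrays. Every mouse was of the TH-MYCN line bred to homozygosity, in which a MYCN transgene is driven by the tyrosine hydroxylase promoter, so the transgene is active where sympathetic cells use that promoter. The small tumors weighed 0.08 g (specimen 3772S, life span 42 days) and 0.1 g (specimen 3287S, life span 28 days), although the growth notes give day 28 for both. The ganglia held foci of neuroblast hyperplasia and had been taken on day 14 of life. The same table held 5 arrays of day 0 ganglia and 2 of day 7 ganglia, which entered the fit for the spread between arrays and are given beside the results. No ganglia of mice without the transgene were among these arrays, and no label says how many ganglia or animals went into each array, so the p-values measure only the spread between these samples, which may be technical. Age and tissue cannot be told apart here, since the tumors came from older mice than the ganglia.

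Neuroblasts are the dividing precursors of sympathetic neurons and chromaffin cells, and they are normally lost or mature after birth. In TH-MYCN mice some persist as hyperplastic foci, of which a fraction grow into tumors. MYCN is a transcription factor that drives growth and cell division, and the mature sympathetic neuron is marked by the enzymes of noradrenaline synthesis, by peripheral nerve filaments and by synaptic vesicle proteins. CENPE, which the series title puts forward as a neuroblastoma target, is a kinesin that carries chromosomes along spindle fibres at the kinetochore. In bulk tissue, fewer cells of a type and less RNA per cell cannot be told apart.

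RNA from frozen sections had been hybridised to single-colour oligonucleotide arrays. Levels below are log2 intensities of the authors' quantile normalized table, with intensities under the 1st percentile (878.91 units, log2 9.78) raised to that floor, and differences are small tumors minus day 14 ganglia on the log2 scale, on which 1 is 2-fold. Before normalization the array medians over all 33012 probes were 1264 and 1514 units in the small tumors and 1101 and 1335 units in day 14 ganglia. Over the 12688 probes tested here they were 14987 and 18933 units in the small tumors, and 14060.5 and 16335 units in day 14 ganglia. The tests are limma's moderated tests, with p-values adjusted by Benjamini-Hochberg over all 12688 probes. An adjusted p under 0.05 is a call, and a gene is said to have risen or fallen only when called. SE stands for the standard error of the fitted difference. With 2 arrays against 2, an exact permutation test of a single value could not go below p = 0.333, so every call rests on the spread estimated over probes and over all 11 arrays.

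Some arrays stood apart in ways that touch every result. By their specimen numbers, both tumors had also been hybridised in the first experiment of the series, and there 31 probes differed over 8-fold between 3772S and 3287S, with a median gap of 4.18 log2. Of these, 26 were higher in 3772S, and most of those with a gene symbol were skeletal muscle genes. On the arrays of the second experiment the same 31 probes differed between the specimens by a median of 0.13 log2 and at most by 0.57 log2, and the library labelled 3287S was as high in muscle genes as the library labelled 3772S. The library labelled 3287S therefore went against its own array in the first experiment. The SD over probes of the difference between both tumor arrays was 0.409 log2, against 0.509 log2 between both day 14 arrays and 0.597 log2 between both day 7 arrays, and it ran from 0.480 to 0.933 log2 between pairs of day 0 arrays. Day 0 replicates 3, 4 and 5 correlated with each other at 0.962 to 0.983 (Pearson, log2). Pairs of day 0 arrays with replicate 1 or 2 correlated at 0.938 to 0.952. This split enters the spread behind every p-value. Whether the tumor arrays came from separate tumors was not tested, so counts are also given with the tumor arrays averaged and counted as 1 sample, a choice made after seeing the data, and without the library labelled 3287S.

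Arrays of the same specimen number differed at many probes between the experiments. On a scale shared by both experiments, specimen 3772S differed between its arrays of the second and first experiment with an SD of 1.37 log2 over probes, while its array of the second experiment differed from the mean of day 14 ganglia with an SD of 1.38 log2. For 3287S these SDs were 1.37 log2 and 1.36 log2. The first experiment's arrays of 3772S and 3287S differed from the mean of day 14 ganglia with SDs of 1.76 and 1.79 log2. Between the experiments, 43.5% of probes were at least 2-fold apart in 3772S and 41.9% in 3287S. Between their arrays of the second experiment and day 14 ganglia these shares were 39.6% and 38.4%. The tumor columns carry the tag 2R, which the ganglia lack and which no label explains. Whatever the tag marks and the step from ganglion to tumor cannot be told apart within the second experiment. Differences of the 6 small tumors of the first experiment against the same day 14 arrays are given beside the main values where they differ in direction. For most genes given in full, they are also given where they differ by over 1.5 times. Genes without such a value may differ by that much too. Both comparisons share the day 14 arrays. With the first experiment's tumors, experiment and tissue cannot be told apart, so that comparison cannot settle what the tag marks.

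The small tumors differed from day 14 ganglia at 5043 of 12688 probes, 39.7% of those tested. Of these, 2522 were higher (19.9%) and 2521 lower (19.9%), and at least 2-fold differences were called higher at 1967 probes (15.5%) and lower at 2002 (15.8%). With 1 probe per gene, 1512 of 7797 named genes rose (19.4%) and 1753 fell (22.5%), with a median difference of -0.02 over all named genes. In either direction 41.9% of named genes were called, and the counts of each list below are to be read beside these shares. With the tumor arrays counted as 1, 925 named genes rose (11.9%) and 1244 fell (16.0%). The arrays of the groups did not overlap at 79.1% of probes, so a lack of overlap sets no gene apart here. Both tumor arrays lay above all 9 ganglia arrays for 1687 named genes (21.6%) and below all of them for 1712 (22.0%). At an unadjusted p under 0.05 there were 6033 probes. The count of higher probes fell by over 1.5 times when either tumor array was left out, to 1521 probes higher without 3772S and 1607 without 3287S, and likewise to 1671 and 1660 without either day 14 array. The plot of gene lists below shows how the shifts were spread over groups of genes, with the cell division lists at the high end and the glial and synaptic lists at the low end.

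**Figure D1:**
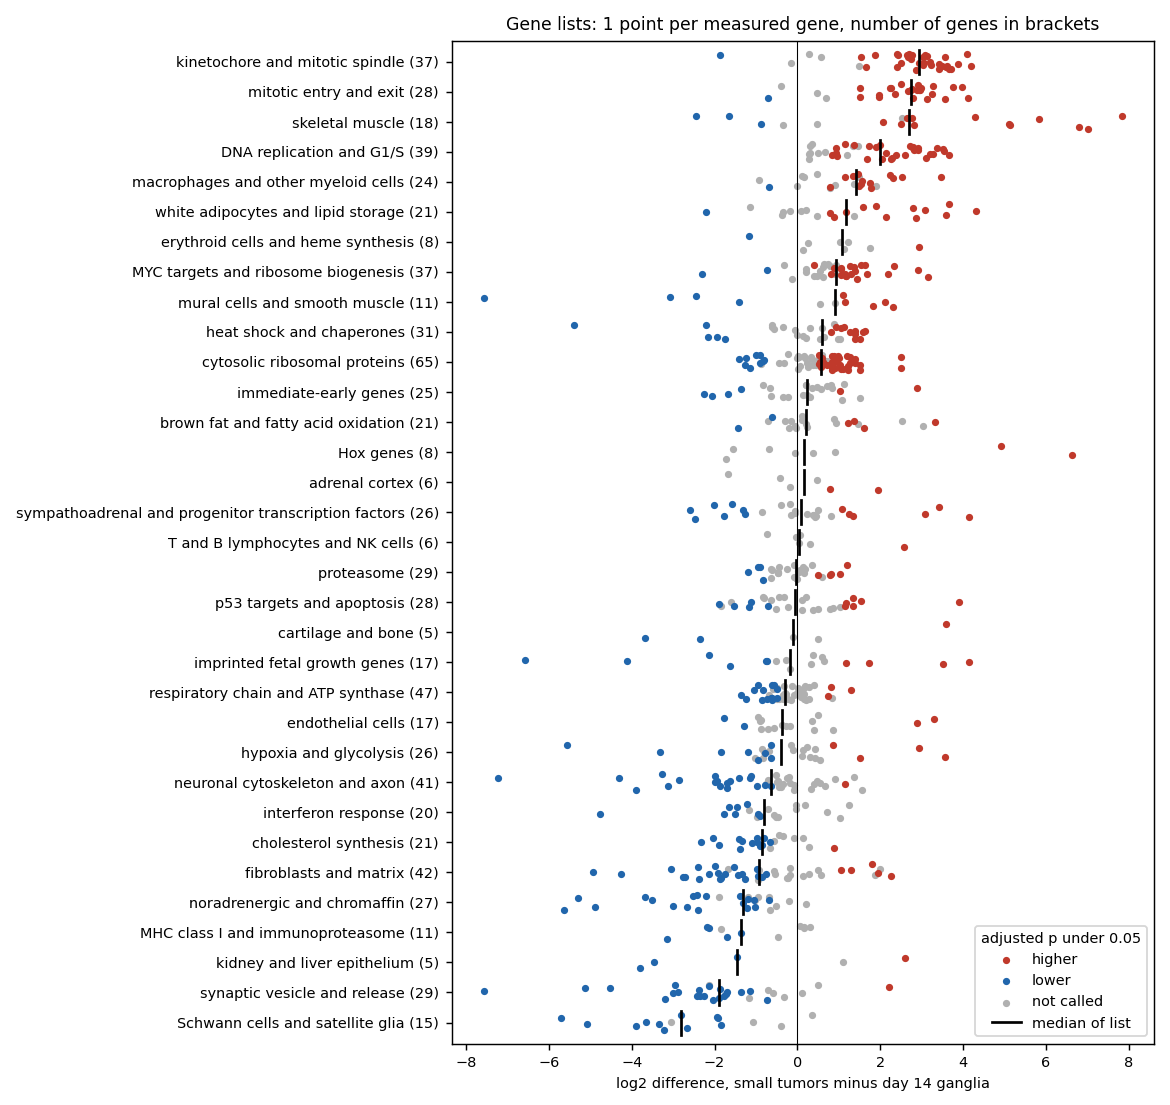
Differences in log2 intensity (x axis, small tumors minus day 14 ganglia) of the measured members of each gene list (rows, ordered by their median, shown as a black bar), with 1 point per gene coloured by call. The kinetochore list has a median of 2.93 and the Schwann cell and satellite glia list a median of -2.81, while the median over all named genes is -0.02.

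Genes of cell division were higher in the small tumors as a group. Of 37 measured kinetochore and spindle genes, 32 rose and 1 fell, with a median of 2.93 against -0.02 over all named genes. Of 28 regulators of mitotic entry and exit, 24 rose and 1 fell, with a median of 2.75. With the tumor arrays counted as 1, 28 and 1 of the first list and 21 and 1 of the second were called, and without the library labelled 3287S the counts were 28 and 1, and 21 and 1. Cenpe read 15.35 and 15.12 in the small tumors, against 12.61 and 12.56 in day 14 ganglia (difference 2.65, SE 0.35, limma adjusted p = 9.62e-05). Both tumor arrays lay above all 9 ganglia arrays for Cenpe, whose group means were 12.39 on day 0, 13.75 on day 7 and 12.58 on day 14. Cenph, a subunit of the inner kinetochore, read 17.31 and 17.11 in the small tumors, against 14.15 and 14.21 in day 14 ganglia (difference 3.03, SE 0.22, limma adjusted p = 8.18e-07). Tpx2, which nucleates spindle microtubules and activates Aurora A, read 19.01 and 18.91 in the small tumors, against 15.92 and 15.77 in day 14 ganglia (difference 3.12, SE 0.25, limma adjusted p = 1.94e-06). Racgap1 of the central spindle, the midzone kinesin gene Kif20a and the centromere gene Cenpn rose by 3.20, 2.68 and 2.74. The exception was Zwint, a kinetochore scaffold gene that sat near the top of the intensity range, at 19.72 and 19.84 in the small tumors and 21.59 and 21.70 in day 14 ganglia (difference -1.86, limma adjusted p = 8.19e-06). Zwint is also expressed in neurons, and its tumor arrays lay below all 9 ganglia arrays.

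The regulators that start and end mitosis moved in the same direction. Cdc20, which directs the anaphase-promoting complex to its targets, read 19.21 and 19.27 in the small tumors, against 16.31 and 16.23 in day 14 ganglia (difference 2.97, SE 0.24, limma adjusted p = 1.85e-06). Plk1, the polo-like mitotic kinase, read 19.17 and 19.05 in the small tumors, against 15.42 and 15.26 in day 14 ganglia (difference 3.76, SE 0.31, limma adjusted p = 2.38e-06). Neither gene's tumor arrays overlapped any ganglia array, and the day 7 ganglia were the nearest, at means of 17.67 for Cdc20 and 16.31 for Plk1. Ccna2, which encodes cyclin A2, rose by 3.56 (SE 0.39), and by 6.50 with the first experiment's tumors. Cdc25a, a phosphatase that activates cyclin-dependent kinases, rose by 2.26 (SE 0.25), and Fbxo5 and Gmnn, inhibitors of the anaphase-promoting complex and of replication licensing, rose by 2.78 and 2.23. The single member that fell was Ube2c, at 21.30 and 21.39 in the small tumors and 22.05 and 22.05 in day 14 ganglia (difference -0.71, limma adjusted p = 0.00136). Ube2c lies at the top of the intensity range, and with arrays centred on their medians it was no longer called. Its difference was -0.29 with the first experiment's tumors.

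DNA replication genes followed, with 29 of 39 measured members higher, 0 lower and a median of 2.00. With the tumor arrays counted as 1, 24 rose and 0 fell. Mcm3, Mcm4 and Mcm5 encode subunits of the replicative helicase. Mcm3 read 19.03 and 19.17 in the small tumors, against 15.92 and 15.72 in day 14 ganglia (difference 3.28, SE 0.30, limma adjusted p = 4.87e-06). Mcm5 read 19.67 and 19.61 in the small tumors, against 16.73 and 16.73 in day 14 ganglia (difference 2.90, SE 0.28, limma adjusted p = 8.48e-06), and Mcm4 rose by 2.37 (1.42 with the first experiment's tumors). Cdc6, which loads that helicase at origins, read 16.13 and 15.82 in the small tumors, against 12.49 and 12.35 in day 14 ganglia (difference 3.55, SE 0.36, limma adjusted p = 1.05e-05), and the difference was 1.94 with the first experiment's tumors. All of these tumor arrays lay above every ganglia array. The clamp loader gene Rfc4 rose by 3.66 and Dut, which keeps uracil out of DNA, by 1.90. The plot of cell division and progenitor genes by stage shows the same order for Cenpe, Tpx2, Cdc20, Plk1, Mcm3, Mcm5 and Cdc6, with day 7 above day 14 and the tumors above both.

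**Figure D2:**
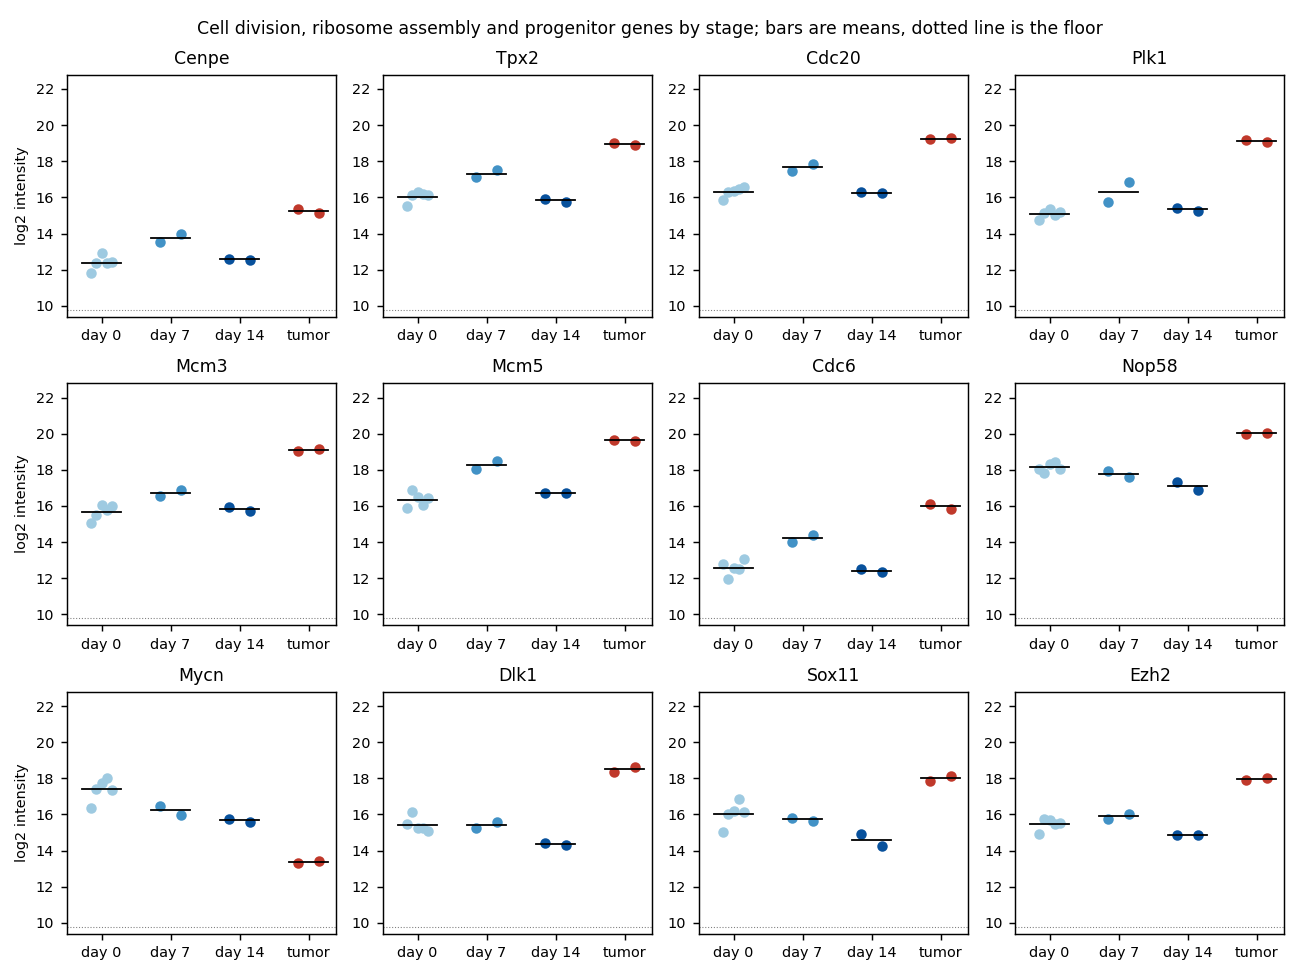
Log2 intensity (y axis) of 12 genes on the arrays of day 0 (n = 5), day 7 (n = 2) and day 14 ganglia (n = 2) and of small tumors (n = 2), with 1 point per array, group means as bars and the floor as a dotted line. The tumor arrays of Mcm3, at 19.03 and 19.17, lie above all ganglia, while those of Mycn, at 13.33 and 13.42, lie below all ganglia.

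The upstream sequences of genes that rose together are shown because E2F factors switch on S-phase genes, and MYC proteins act through the E-box CACGTG. In the RefSeq promoters of GRCm38.p6, cut to the 250 bases before each gene's start, the E2F motifs TTTCCCGC and TTTGGCGC (either, on both strands, no overlap between them) occurred in 1.35% of all 27025 promoters and in 2.77% of the 6056 matched promoters of named genes on the arrays. They occurred in 6 of 32 matched promoters of the replication list (18.75%) and in 5 of 52 of the kinetochore and mitosis lists (9.62%). Gene lists count all measured members here, called or not, so their motif shares do not rest on the differences. The E2F share was 3.74% among named genes higher at least 2-fold and 1.89% among those lower at least 2-fold. CCAAT, on both strands, occurred in 33 of the 52 promoters of the kinetochore and mitosis lists (63.5%), against 34.5% of all promoters and 36.8% of those of named genes. CACGTG occurred in 6 of 32 promoters of the MYC and ribosome list (18.75%) against 6.05% of all promoters and 8.69% of those of named genes, and its share was 8.90% among named genes higher at least 2-fold and 8.04% among those lower at least 2-fold. The 4 promoters below, from genes that rose, were chosen after the values were seen because they hold an E2F motif, which is in capitals and may lie on either strand. A match is a run of letters, not a measured site.
Cdc6 (chr11:98907901-98908150, plus strand): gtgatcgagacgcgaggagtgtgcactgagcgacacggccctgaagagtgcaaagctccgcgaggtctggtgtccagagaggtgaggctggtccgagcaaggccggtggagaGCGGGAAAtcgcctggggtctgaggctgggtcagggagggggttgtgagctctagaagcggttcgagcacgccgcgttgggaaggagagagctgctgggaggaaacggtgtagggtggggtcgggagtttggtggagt
Mcm5 (chr8:75109259-75109508, plus strand): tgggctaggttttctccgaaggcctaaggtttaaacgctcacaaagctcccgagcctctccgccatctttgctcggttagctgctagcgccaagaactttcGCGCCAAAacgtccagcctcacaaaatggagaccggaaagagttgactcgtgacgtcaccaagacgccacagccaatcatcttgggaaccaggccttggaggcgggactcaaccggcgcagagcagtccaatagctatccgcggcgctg
Cdc25a (chr9:109875329-109875578, plus strand): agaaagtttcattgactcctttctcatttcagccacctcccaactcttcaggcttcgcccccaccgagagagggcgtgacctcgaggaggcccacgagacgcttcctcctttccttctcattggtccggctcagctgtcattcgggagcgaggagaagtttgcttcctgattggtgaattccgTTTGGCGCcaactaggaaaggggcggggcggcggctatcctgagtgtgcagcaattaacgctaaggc
Nop58 (chr1:59684756-59685005, plus strand): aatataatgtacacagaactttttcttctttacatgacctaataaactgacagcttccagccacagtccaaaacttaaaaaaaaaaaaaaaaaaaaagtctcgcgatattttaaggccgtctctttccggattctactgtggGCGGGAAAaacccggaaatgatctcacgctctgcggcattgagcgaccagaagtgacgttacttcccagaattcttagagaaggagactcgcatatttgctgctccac
The motif begins 138 bases before the gene start in Cdc6, 149 in Mcm5, 67 in Cdc25a and 108 in Nop58, and within the same window neither Cenpe nor Plk1 held these letters. Nolc1, which rose, also held an E2F motif, and so did Mycn and Psmb9, which fell.

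Mycn itself was lower in the small tumors. It read 13.33 and 13.42 in the small tumors, against 15.77 and 15.58 in day 14 ganglia (difference -2.30, SE 0.41, limma adjusted p = 0.000824). The ganglia means were 17.38 on day 0, 16.23 on day 7 and 15.68 on day 14, and both tumor arrays lay below all 9 ganglia arrays. The difference was -3.58 with the first experiment's tumors. Whether this probe reads the human transgene as well as the mouse gene is not stated by any label or file, so it does not check the genotype. Myc, the related factor, fell by 2.06 on the log2 scale (SE 0.34, limma adjusted p = 0.000465; -1.23 with the first experiment's tumors), at 12.54 and 12.50 in the small tumors and 14.51 and 14.65 in day 14 ganglia.

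Genes of ribosome assembly and other MYC targets were mostly higher. Of 37 measured, 21 rose and 2 fell (Mycn itself and the chaperonin gene Cct3), with a median of 0.94, and 17 rose and 2 fell with the tumor arrays counted as 1. Nop58, a core protein of the small nucleolar particles that modify ribosomal RNA, read 20.00 and 20.03 in the small tumors, against 17.31 and 16.89 in day 14 ganglia (difference 2.92, SE 0.22, limma adjusted p = 1.13e-06). Nolc1 and Ebna1bp2, both nucleolar, rose by 2.20 and 1.67, and Nhp2, of another class of small nucleolar particle, rose by 1.26. The arrays of the groups did not overlap for these genes, as at 79.1% of all probes. Apex1, a DNA repair nuclease, read 21.34 and 20.75 in the small tumors and 19.55 and 19.45 in day 14 ganglia (difference 1.54, limma adjusted p = 0.000337; 0.84 with the first experiment's tumors). Noc2l, of ribosome assembly, was called higher by 3.16 but by the first experiment's tumors it was -0.23 and not called. Its day 14 arrays lay apart, at 12.97 and 14.28.

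Cytosolic ribosomal protein genes shifted less. Of 65 measured, 33 rose and 9 fell, with a median of 0.58, and 26 rose and 9 fell with the tumor arrays counted as 1. Rpl4 rose by 2.51 and by 0.64 with the first experiment's tumors, while Rps16 rose by 1.52 and by 0.70 there. Counts for this list depended on the scaling, at 20 higher and 2 lower with arrays centred on their medians and 3 higher and 0 lower with no scaling. Ribosomal protein genes have many near-identical copies, and probes of 1 gene could disagree. Rpl21 had 14 probes, of which the brightest fell by 1.27 on the log2 scale while the median of its other probes was 0.39.

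The noradrenergic programme was lower in the small tumors. Of 27 measured noradrenergic and chromaffin genes, 0 rose and 18 fell, with a median of -1.30, and 14 fell with the tumor arrays counted as 1 or without the library labelled 3287S. Th, which encodes the enzyme that starts catecholamine synthesis and whose promoter drives the transgene, read 18.91 and 18.89 in the small tumors, against 21.90 and 21.92 in day 14 ganglia (difference -3.01, SE 0.19, limma adjusted p = 3.12e-07). Dbh, which encodes the enzyme that turns dopamine into noradrenaline, read 10.96 and 11.77 in the small tumors, against 16.78 and 17.23 in day 14 ganglia (difference -5.64, SE 0.39, limma adjusted p = 5.76e-07). Th stayed far above the floor in the small tumors, whereas Dbh lay within 2 log2 units of it, and both genes' tumor arrays lay below all 9 ganglia arrays. With the first experiment's tumors the difference was -2.74 for Th and -2.03 for Dbh, so the size of the Dbh difference depended on which tumor arrays were used.

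Enzymes that break down monoamines, a nicotinic receptor and neuropeptides were lower too. Maoa and Maob, the monoamine oxidase genes, differed by -2.66 and -3.50, both called (-2.12 for Maob with the first experiment's tumors). Chrna3, a subunit of the ganglionic nicotinic receptor, read 12.99 and 12.87 in the small tumors, against 16.38 and 16.85 in day 14 ganglia (difference -3.69, SE 0.29, limma adjusted p = 1.78e-06), and the difference was -2.11 with the first experiment's tumors. Pcsk1n, which encodes the granin-like proSAAS, fell by 2.52. The co-transmitter peptides neuropeptide Y and galanin are made by many sympathetic neurons. Npy read 15.47 and 15.38 in the small tumors, against 20.61 and 20.81 in day 14 ganglia (difference -5.29, limma adjusted p = 5.31e-06), and Gal fell by 4.89. The granins of the secretory granules did not follow. Chga read 19.56 and 19.61 in the small tumors and 19.39 and 19.34 in day 14 ganglia (difference 0.22, SE 0.18, limma adjusted p = 0.355), and Chgb 20.42 and 20.49 in the small tumors and 20.59 and 20.70 in day 14 ganglia (difference -0.19, SE 0.15, limma adjusted p = 0.342). Both granins were thus bright on the tumor arrays, and neither passed the test, although Chgb was called lower with the first experiment's tumors (difference -0.97, limma adjusted p = 0.00546).

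**Figure D3:**
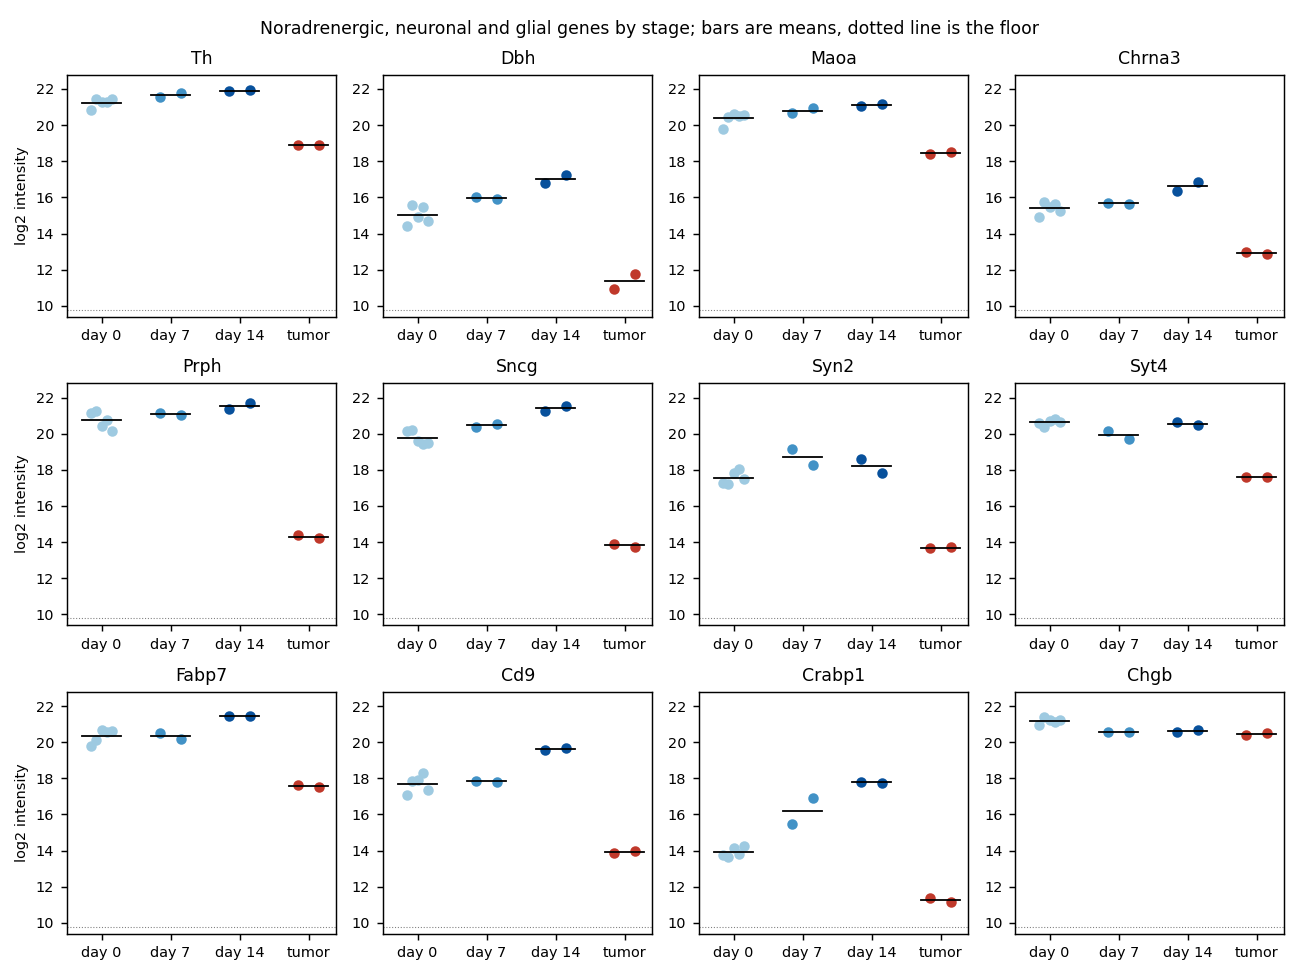
Log2 intensity (y axis) of 12 noradrenergic, neuronal and glial genes on the arrays of day 0 (n = 5), day 7 (n = 2) and day 14 ganglia (n = 2) and of small tumors (n = 2), with 1 point per array, group means as bars and the floor as a dotted line. Th lies at 18.91 and 18.89 in the small tumors and 21.90 and 21.92 in day 14 ganglia, while Chgb lies at 20.42 and 20.49 in the small tumors and 20.59 and 20.70 in day 14 ganglia.

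Transcription factors that specify the sympathoadrenal lineage were detected in the small tumors, and they moved in both directions. Of the list of lineage and progenitor genes, 50% were called, against 41.9% of all named genes. Of 26 measured lineage and progenitor genes, 6 rose and 7 fell, with a median of 0.09, and leaving out each array in turn left 3 to 5 higher and 5 lower. Hand2 differed by -0.85 (SE 0.42, limma adjusted p = 0.128) and Gata3 by 0.23 (SE 0.36, limma adjusted p = 0.654), so neither of these factors passed the test in the main comparison. Both had the other sign with the first experiment's tumors, at 0.46 for Hand2 (limma adjusted p = 0.225) and -0.72 for Gata3, which was called lower there (limma adjusted p = 0.0351). Gata2 read 15.82 and 15.63 in the small tumors, against 18.33 and 18.30 in day 14 ganglia (difference -2.59, SE 0.33, limma adjusted p = 6.07e-05). Phox2a fell by 1.27 on the log2 scale (SE 0.29, limma adjusted p = 0.0041), but with the first experiment's tumors it was higher, by 0.99 (limma adjusted p = 0.00215), so its direction depended on the arrays. Id1 and Nr2f1 fell by 1.76 and 1.59. Alk, the receptor kinase mutated in some human neuroblastomas, differed by 0.42 (SE 0.48, limma adjusted p = 0.527), and by 1.35 with the first experiment's tumors, where it was called (limma adjusted p = 0.00358).

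Progenitor and chromatin genes gave the largest rises of this list. Sox11, a factor of immature neurons, read 17.88 and 18.13 in the small tumors, against 14.90 and 14.25 in day 14 ganglia (difference 3.43, SE 0.44, limma adjusted p = 7.28e-05). Ezh2, the methyltransferase of polycomb repressive complex 2, read 17.92 and 18.00 in the small tumors, against 14.89 and 14.88 in day 14 ganglia (difference 3.08, SE 0.27, limma adjusted p = 3.35e-06), and the difference was 1.74 with the first experiment's tumors. Dlk1, an imprinted Notch-ligand homologue expressed by chromaffin and other progenitors, read 18.37 and 18.61 in the small tumors, against 14.41 and 14.31 in day 14 ganglia (difference 4.13, SE 0.31, limma adjusted p = 1.13e-06). The tumor arrays lay above all 9 ganglia arrays for these 3 genes, although the day 0 means of Sox11, Ezh2 and Dlk1, 16.04, 15.47 and 15.44, were above those of day 14.

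Genes of the neuronal cytoskeleton, axon and synapse were lower. Of 41 cytoskeletal and axonal genes measured, 1 rose (Elavl3, 1.15) and 19 fell, with a median of -0.64. Of 29 synaptic genes, 1 rose (Cacna2d1, 2.20, and 4.71 with the first experiment's tumors) and 21 fell, with a median of -1.90. With the tumor arrays counted as 1, 17 and 19 fell. Cacna2d1 was not called without the library labelled 3287S (difference 2.16, limma adjusted p = 0.0509) or without day 14 replicate 2 (difference 1.65, limma adjusted p = 0.0941). Prph, the intermediate filament peripherin of peripheral neurons, read 14.39 and 14.21 in the small tumors, against 21.38 and 21.68 in day 14 ganglia (difference -7.23, SE 0.31, limma adjusted p = 2.29e-08). Sncg, which encodes gamma-synuclein, read 13.90 and 13.75 in the small tumors, against 21.27 and 21.54 in day 14 ganglia (difference -7.58, SE 0.26, limma adjusted p = 2.83e-09). These were the 2 lowest differences among called named genes with no array at the floor. Their groups did not overlap, as at 79.1% of all probes. In the ganglia Sncg rose by 1.64 between day 0 and day 14 (limma adjusted p = 0.00106), and Prph differed by 0.79 (limma adjusted p = 0.074). The synapsin gene Syn2 differed by -4.53, a called fall. Syt4, of vesicle release, fell by 2.96.

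Among axonal genes, Ndrg4 read 16.56 and 16.57 in the small tumors, against 20.76 and 21.00 in day 14 ganglia (difference -4.31, SE 0.19, limma adjusted p = 2.75e-08). Chl1, a neural adhesion molecule, fell by 3.90 and Dpysl3, which shapes growth cones, by 3.26. Stmn3 and Rtn1 fell by 1.70 and 1.71 and stayed above 19 log2 units in the small tumors. Gap43, the growth cone protein, fell by 1.87 (limma adjusted p = 0.0019), but with the first experiment's tumors the difference was 0.56 (limma adjusted p = 0.22). In that comparison 13 of the 41 cytoskeletal genes rose and 15 fell, and 5 of the 29 synaptic genes rose and 16 fell, so the split of the cytoskeletal list in particular depended on the tumor arrays.

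**Figure D4:**
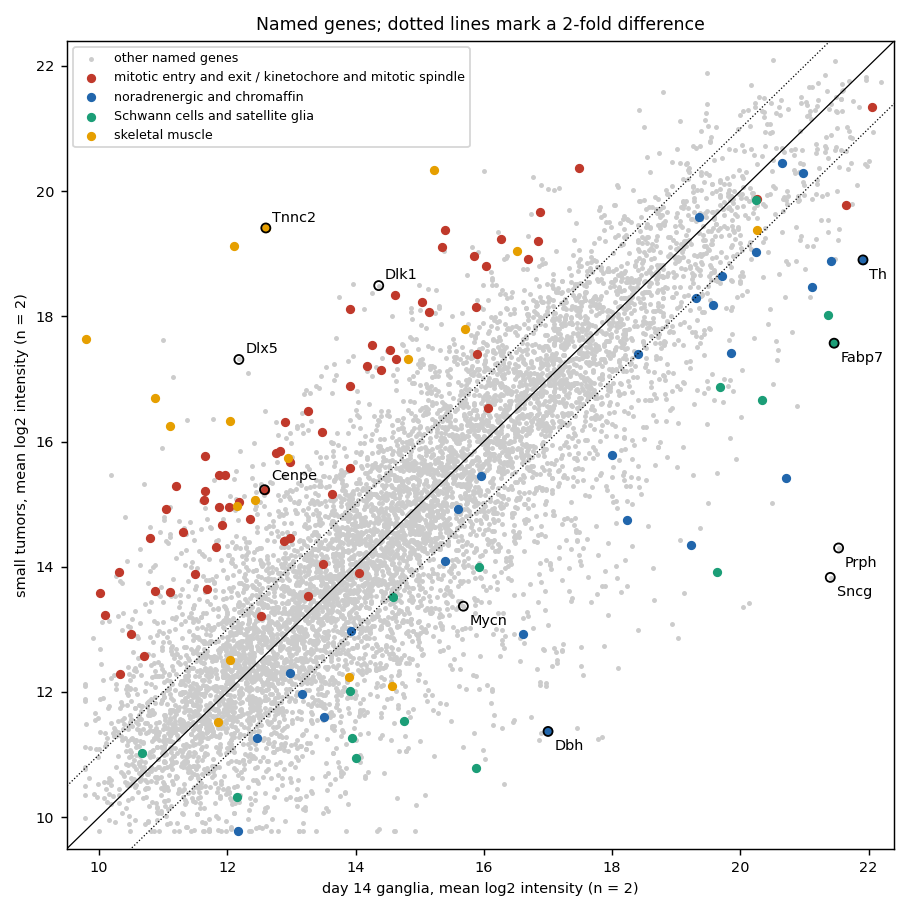
Mean log2 intensity of named genes in small tumors (y axis, n = 2) against day 14 ganglia (x axis, n = 2), with 4 gene groups coloured and 10 genes labelled. Cell division and skeletal muscle genes lie mostly above the diagonal, and noradrenergic and glial genes mostly below it, with Prph and Sncg at the lower right.

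Markers of Schwann cells and of the satellite glia that wrap ganglion neurons were lower as well. Of 15 measured, 0 rose and 11 fell, with a median of -2.81, and all 11 calls held with the tumor arrays counted as 1. The mean log2 level over the list was 13.96 and 13.82 in the small tumors, against 16.61 and 16.53 in day 14 ganglia. Fabp7, a fatty acid binding protein of satellite glia, read 17.61 and 17.53 in the small tumors, against 21.45 and 21.47 in day 14 ganglia (difference -3.89, SE 0.26, limma adjusted p = 4.78e-07). Cd9, a tetraspanin of Schwann and other cells, read 13.87 and 13.96 in the small tumors, against 19.57 and 19.68 in day 14 ganglia (difference -5.72, SE 0.32, limma adjusted p = 1.12e-07). Sostdc1 and Gpr37l1 both fell, with differences of -3.66 and -5.08. Apoe, made by glia and macrophages, fell by 3.34, against a difference of -0.46 with the first experiment's tumors. S100b read 11.11 and 10.78 in the small tumors and 14.08 and 13.91 in day 14 ganglia, and its difference of -3.05 (SE 1.22, limma adjusted p = 0.0651) did not pass the test, while the first experiment's tumors gave -2.62 (limma adjusted p = 0.0323). Myelin basic protein, Mbp, differed by 0.36 and was not called. With the first experiment's tumors Mbp was called higher, by 3.095 (limma adjusted p = 1.28e-05). In that comparison 1 member of the glial list rose and 10 fell, with a median of -2.62.

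The other genes with the lowest differences came from several groups. Tspan8, Fbxo2 and Crabp1 all fell, with differences of -6.71, -6.68 and -6.53, as did Asic2, Avil, Tm4sf4 and Bdh2, with differences of -6.16, -6.03, -5.84 and -5.80. Crabp1 binds retinoic acid, Asic2 is an acid-sensing channel and Avil is the peripheral neuron protein advillin. Crabp1 read 11.36 and 11.13 in the small tumors, against 17.82 and 17.73 in day 14 ganglia, and its ganglia means were 13.92 on day 0 and 16.17 on day 7. Avil likewise had a mean of 12.78 on day 0 against 17.44 on day 14, and both genes rose between day 0 and day 14 in the ganglia (limma adjusted p = 0.00027 for Crabp1 and 0.00458 for Avil), while the tumors lay below every ganglia array. Entpd3, an enzyme that degrades extracellular nucleotides, read 12.49 and 12.28 in the small tumors and 18.00 and 18.17 in day 14 ganglia (difference -5.70, SE 0.25, limma adjusted p = 2.29e-08).

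At the other end, 6 of the 12 highest named genes encode no muscle protein. Dlx5, a homeobox factor, read 17.47 and 17.15 in the small tumors, against 12.31 and 12.05 in day 14 ganglia (difference 5.13, SE 0.50, limma adjusted p = 7.82e-06). St18, a zinc finger factor, read 15.39 and 15.54 in the small tumors, against 10.07 and 10.31 in day 14 ganglia (difference 5.28, SE 0.77, limma adjusted p = 0.000179; 3.21 with the first experiment's tumors). Its day 0 mean was 12.61, between those values. Sfrp2, a secreted modulator of Wnt signals, rose by 4.78, Tox3 by 4.61, and the chemokine gene Ccl19 by 4.99 (2.83 with the first experiment's tumors). Hoxa5, which patterns the body axis, read 15.99 and 15.79 in the small tumors, against 11.15 and 10.82 in day 14 ganglia (difference 4.91, SE 0.57, limma adjusted p = 3.31e-05; 2.76 with the first experiment's tumors). Hoxc9 read 17.63 and 17.61 in the small tumors, against 12.21 and the floor of 9.78 in day 14 ganglia. Its day 7 ganglia, with a mean of 18.16, were as high as the tumors, while the day 0 mean was 11.17, so the levels of this axis gene also differed among the ganglia arrays themselves. Of 8 Hox genes measured, these 2 rose and 0 fell, so 25% were called, against 41.9% of all named genes.

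Connective tissue markers were mostly lower. Of 42 fibroblast and matrix genes, 5 rose and 21 fell, with a median of -0.93, and 2 rose and 19 fell with the tumor arrays counted as 1. The mean log2 level over the list was 14.77 and 14.82 in the small tumors, against 15.54 and 15.75 in day 14 ganglia. Mmp2, a gelatinase, read 11.62 and 11.47 in the small tumors, against 16.22 and 16.73 in day 14 ganglia (difference -4.93, SE 0.40, limma adjusted p = 2.14e-06; -2.79 with the first experiment's tumors). Serpinf1, Timp2, Dcn and Igfbp6 all fell, with differences of -4.25, -2.76, -2.14 and -2.40, as did Sparc, at -1.52, which differed by -4.64 with the first experiment's tumors. The fibrillar collagen genes Col1a1 and Col3a1, which define fibroblasts, differed by -0.23 and -0.18, and neither was called. Col1a1 was called higher with the first experiment's tumors (difference 2.24, limma adjusted p = 0.00228).

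Myeloid markers were higher. Of 24 measured, 13 rose and 1 fell, with a median of 1.41, and 10 rose and 1 fell with the tumor arrays counted as 1. With the first experiment's tumors 8 rose and 1 fell, with a median of 0.47, and leaving out each array in turn left 8 to 12 higher. Lyz2, the lysozyme gene of macrophages and granulocytes, read 20.23 and 20.21 in the small tumors, against 16.82 and 16.70 in day 14 ganglia (difference 3.46, SE 0.26, limma adjusted p = 9.80e-07). Ctss, a lysosomal protease, and Ccl2, which draws monocytes, rose by 2.31 and 2.53, and Fcer1g and the complement gene C1qc rose by 1.78 and 1.54. The protease gene Ctsb, which many cell types express, was the member that fell, by 0.69, and it was not called without day 14 replicate 1 (difference -0.53, limma adjusted p = 0.051). Over the list the mean log2 level was 15.56 and 15.56 in the small tumors, against 14.49 and 14.22 in day 14 ganglia. Of 6 lymphoid genes, 1 rose: Rag1, the recombinase gene of developing lymphocytes, which differed by 2.58, while Lck and Cd79a, at 0.31 and -0.03, were not called.

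Vessel genes showed no shared shift. Of 17 endothelial genes, 2 rose and 2 fell, with a median of -0.37, and the 23.5% called lay below the 41.9% of all named genes. Those that rose, Prox1 by 3.29 and Lyve1 by 2.90, are best known from lymphatic endothelium, and Prox1 is also a factor of neural progenitors. With the first experiment's tumors Lyve1 differed by 0.87 and was not called (limma adjusted p = 0.361). Lyve1 was not called with the tumor arrays counted as 1 (limma adjusted p = 0.0631), without the library labelled 3772S (difference 2.73, limma adjusted p = 0.0778) or without day 14 replicate 1 (difference 2.38, limma adjusted p = 0.1). Ramp2 and Egfl7 fell by 1.77 and 1.30. Egfl7 was not called without the library labelled 3772S (difference -1.20, limma adjusted p = 0.0565) or without day 14 replicate 2 (difference -1.13, limma adjusted p = 0.0662). Vegfa, the main growth factor for vessels, read 11.91 and 12.38 in the small tumors and 12.77 and 11.85 in day 14 ganglia (difference -0.16, SE 0.49, limma adjusted p = 0.824), and its groups overlapped. Of 11 mural and smooth muscle genes, 5 rose and 4 fell, and Sncg, described above, was among those that fell. Of these, 1 rose and 3 fell with the tumor arrays counted as 1, and leaving out each array in turn left 1 to 3 higher.

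Skeletal muscle genes, listed as markers of another tissue, gave some of the largest rises. Of 18 measured, 12 rose and 3 fell, with a median of 2.71, and the counts were the same with the tumor arrays counted as 1. The mean log2 level over the list was 16.33 and 16.27 in the small tumors, against 13.31 and 13.46 in day 14 ganglia. Tnni2 and Tnnc2 encode subunits of fast muscle troponin. Tnnc2 read 19.46 and 19.35 in the small tumors, against 12.93 and 12.27 in day 14 ganglia (difference 6.81, SE 0.57, limma adjusted p = 2.62e-06), and Tnni2 rose by 7.01. Acta1, skeletal alpha-actin, read 20.34 and 20.34 in the small tumors, against 15.17 and 15.27 in day 14 ganglia (difference 5.12, SE 0.33, limma adjusted p = 3.20e-07). Casq1, Ckm and the cardiac actin gene Actc1 rose by 5.83, 5.13 and 5.87. Tnnt3 read 17.85 and 17.42 in the small tumors, and 9.78 (the floor) and 9.80 in day 14 ganglia, so its difference of 7.85 is a lower bound. The genes that fell were Casq2, Tnnt1 and Myl1, with differences of -2.46, -1.64 and -0.88. None of these 3 was called with the first experiment's tumors, and Myl1 was not called without the library labelled 3287S (difference -0.82, limma adjusted p = 0.0615) or without day 14 replicate 2 (difference -0.71, limma adjusted p = 0.0897).

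The first experiment's arrays held a tumor array without this muscle signal. The array of 3287S in that experiment read 11.72 for Tnnc2 and 13.74 for Acta1 on its own experiment's scale, against 18.16 and 19.97 on the array of 3772S, and the 4 other small tumors lay between 16.61 and 19.40 for Tnnc2 and between 18.66 and 20.83 for Acta1. The muscle list of that 3287S array had a median difference of -0.21 against day 14 ganglia. On the same array the kinetochore list had a median of 3.09, the mitotic list 2.76, the replication list 2.34 and the MYC and ribosome list 2.05. The noradrenergic list had a median of -1.26 and the glial list -2.14 there. These are values of 1 array with no replicate, and its specimen number carried high muscle genes in the second experiment. The part of muscle in the main differences was not tested.

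**Figure D5:**
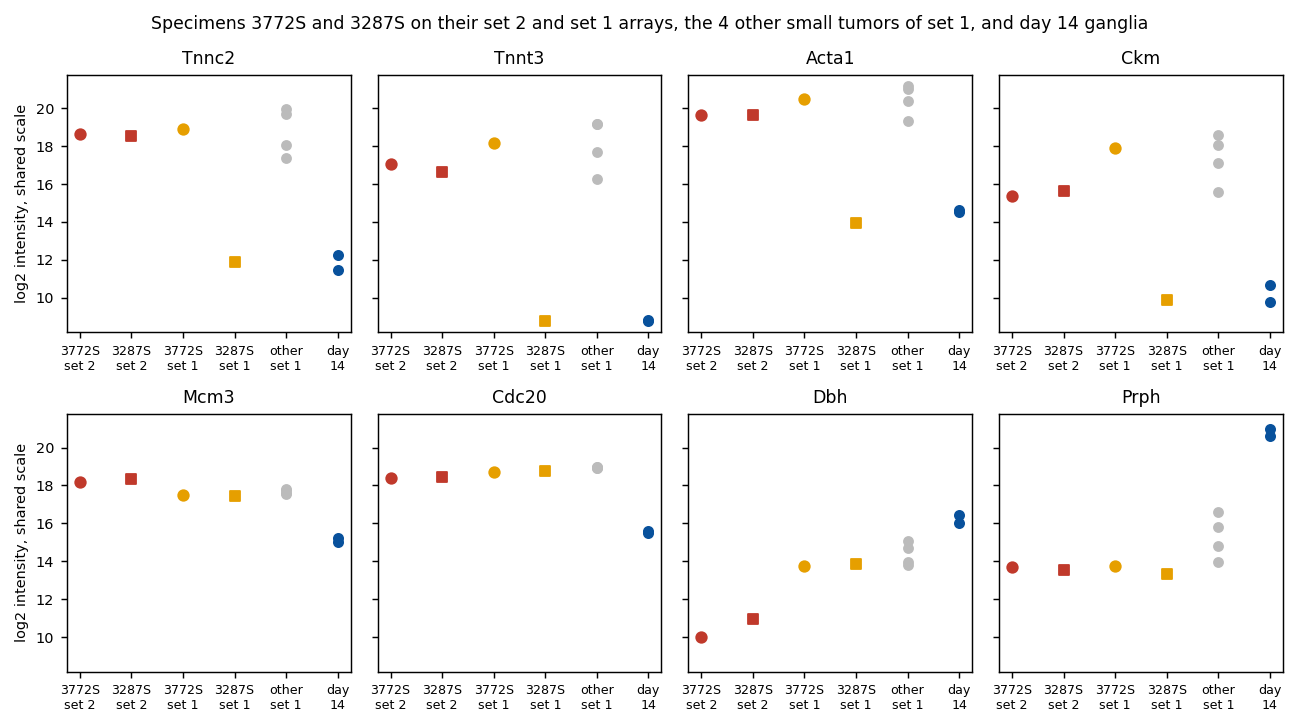
Log2 intensity (y axis, a scale shared by both experiments) of 4 muscle genes, 2 cell division genes, Dbh and Prph in specimens 3772S and 3287S on their arrays of the second and first experiment (set 2 and set 1), in the other 4 small tumors of set 1 and in day 14 ganglia (n = 2). The set 1 array of 3287S is low for all 4 muscle genes, whereas its set 2 array is high, and Mcm3 and Cdc20 are above day 14 ganglia on every tumor array.

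Adipose genes rose too. Of 21 white adipocyte and lipid storage genes, 12 rose and 1 fell, with a median of 1.17, and 7 rose and 1 fell with the tumor arrays counted as 1. Cfd, which encodes adipsin, read 20.12 and 20.51 in the small tumors, against 15.95 and 16.04 in day 14 ganglia (difference 4.32, SE 0.72, limma adjusted p = 0.0005), and it differed by 1.78 with the first experiment's tumors and was not called there. Gpd1, Thrsp and Dgat2, of triglyceride synthesis, rose by 2.87, 3.67 and 1.59, and Fasn by 1.17, against -0.36 with the first experiment's tumors. Me1, which supplies NADPH for lipid synthesis, fell by 2.20. Among 21 brown fat and fatty acid oxidation genes 4 rose and 2 fell, and 3 rose and 1 fell with the tumor arrays counted as 1. With the first experiment's tumors 10 of these 21 oxidation genes rose and 3 fell, with a median of 1.14, against 0.22 in the main comparison. Ucp1, the thermogenic uncoupling protein, read 19.95 and 20.11 in the small tumors and 16.34 and 17.65 in day 14 ganglia. Its difference of 3.03 (SE 1.48, limma adjusted p = 0.123) did not pass the test, and the groups did not overlap, as at 79.1% of all probes. The part of adipose tissue in the results was not tested.

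Antigen presentation and interferon-induced genes were lower or not called. Of 11 genes of MHC class I and the immunoproteasome, 0 rose and 5 fell, with a median of -1.37, and the 5 calls held with the tumor arrays counted as 1. Psmb10, an immunoproteasome subunit, read 11.71 and 11.76 in the small tumors, against 14.84 and 14.94 in day 14 ganglia (difference -3.15, SE 0.34, limma adjusted p = 1.70e-05; -1.43 with the first experiment's tumors). H2-D1, a class I heavy chain, read 12.23 and 12.68 in the small tumors, against 14.74 and 14.56 in day 14 ganglia (difference -2.19, SE 0.37, limma adjusted p = 0.000492), close to its means of 12.61 on day 7 and 12.78 on day 0. Erap1, Tapbpl and Psmb9 fell by 1.37, 2.13 and 1.70. Of 20 interferon response genes 0 rose and 8 fell, led by Oasl2, which fell by 4.76, and Irf1, Isg15 and Ifi35 fell by 1.77, 1.65 and 1.51. Of the 20, 5 fell with the tumor arrays counted as 1, and leaving out each array in turn left 3 to 6 lower. Without day 14 replicate 1, neither Isg15 (difference -1.38, limma adjusted p = 0.0598) nor Psmb9 (difference -1.41, limma adjusted p = 0.0718) was called. The median of the interferon list was -0.80 against day 14 but -0.35 against day 7 and -0.28 against day 0.

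Metabolic lists moved less. Of the hypoxia and glycolysis, respiratory chain and proteasome lists, 46.2%, 36.2% and 31.0% were called, against 41.9% of all named genes. Of 21 cholesterol synthesis and uptake genes, 1 rose and 13 fell, with a median of -0.85, and 0 rose and 6 fell with the tumor arrays counted as 1. Fdft1, which makes squalene, fell by 2.03 and Hmgcs1, an early enzyme of the pathway, by 0.85, against -2.07 for Hmgcs1 with the first experiment's tumors. Of 26 hypoxia and glycolysis genes, 4 rose and 8 fell, but 3 rose and 3 fell with the tumor arrays counted as 1. Eno2, the neuronal enolase, fell by 5.56 and the glucose phosphate isomerase gene Gpi1 by 1.83. Hk1 and Hk2 encode hexokinases, which commit glucose to metabolism. Hk2 rose by 2.94, at 14.98 and 15.17 in the small tumors and 12.19 and 12.07 in day 14 ganglia. Hk1 fell by 3.32, although the first experiment's tumors gave a difference of 0.14. Car12, a membrane carbonic anhydrase, rose by 3.56. Of 47 respiratory chain genes 3 rose and 14 fell, but 3 rose and 4 fell with the tumor arrays counted as 1, and of 29 proteasome genes 5 rose and 4 fell, but 0 and 1 on that count. Of 31 chaperone genes, 11 rose and 5 fell, and with the tumor arrays counted as 1, 7 rose and 5 fell. The chaperonin subunit genes Cct4, Cct5 and Cct6a were higher by 1.39, 1.13 and 1.59 (-0.07 for Cct4 and 0.39 for Cct5 with the first experiment's tumors), while Cct3, of the same complex, fell, and the small heat shock protein gene Hspb8 was lower, at -5.40. With no scaling between arrays 1 of the 31 rose and 5 fell.

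Genes of the p53 pathway and apoptosis showed no common direction, with 6 of 28 higher, 5 lower and a median of -0.05. The 39.3% called were near the 41.9% of all named genes. Counting the tumor arrays as 1 left 2 higher and 5 lower, and the first experiment's tumors gave 9 higher and 8 lower. Phlda3 and Casp9 fell by 1.54 and 1.12 (differences of -2.92 and -3.19 with the first experiment's tumors). Cdkn1a, the cell cycle inhibitor p21, read 10.72 and 11.39 in the small tumors and 12.47 and 13.41 in day 14 ganglia (difference -1.89, SE 0.45, limma adjusted p = 0.00485). Cdkn1a was not called without the library labelled 3772S (difference -1.55, limma adjusted p = 0.0556) or without day 14 replicate 2 (difference -1.42, limma adjusted p = 0.069). With the first experiment's tumors Cdkn1a differed by 0.89 (limma adjusted p = 0.0659), so its direction was not shared by the tumor arrays of both experiments.

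Imprinted growth genes went both ways, and 58.8% were called, against 41.9% of all named genes. Of 17 measured, 4 rose and 6 fell, and with the first experiment's tumors 10 rose and 6 fell. Igf2, the fetal growth factor, read 15.59 and 15.42 in the small tumors, against 19.60 and 19.66 in day 14 ganglia (difference -4.12, SE 0.20, limma adjusted p = 3.70e-08). Its ganglia means were 21.24 on day 0, 20.16 on day 7 and 19.63 on day 14, and the tumors lay below all of them. Slc38a4, an amino acid transporter gene, rose by 3.51 and Grb10, an adaptor that restrains growth factor receptors, by 1.72 (0.76 with the first experiment's tumors). Impact fell by 6.57. Cdkn1c, the imprinted cell cycle inhibitor, differed by 0.38 (limma adjusted p = 0.389) and by -1.18 with the first experiment's tumors (limma adjusted p = 0.00389).

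The small tumors were also set against the ganglia of each age. Both tumor arrays lay above all 9 ganglia arrays at 2699 probes (21.3%) and below all of them at 2501 probes (19.7%). They differed from day 7 ganglia at 4091 probes (32.2%) and from day 0 ganglia at 4734 (37.3%), while day 14 and day 7 ganglia differed at 59 probes (0.465%) and day 14 and day 0 ganglia at 1293 (10.2%). These comparisons share arrays. Against day 7 ganglia the kinetochore list had a median of 1.82 and the replication list 1.31, and against day 0 ganglia they had medians of 2.94 and 2.28. The noradrenergic list had medians of -1.27 and -1.01 against day 7 and day 0, and the glial list of -2.49 and -1.76, so both were lower in the small tumors than in ganglia of any of the 3 ages.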

How the data were processed

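The authors deposited single-colour array intensity values in a series table that was not normalized between arrays and in a table of 12688 probes for 11 arrays, quantile normalized per the text deposited with it. In that table each rank carried the highest of the 11 arrays, so its intensity values are at or above those of the series table. The imaging software, background correction and probe filter are not stated by any label or file header read here.

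Here intensities were raised to the 1st percentile and log2 values were fitted with limma 3.58.1 in R 4.3.3 (lmFit, eBayes with an intensity trend, 4 groups, all 11 arrays, two-sided tests, Benjamini-Hochberg adjustment). Tables and figures used Python 3.11.15, numpy 2.4.6, pandas 2.3.3 and matplotlib 3.10.9. The fit was tested on simulated data. Symbols were updated through RefSeq synonyms of GRCm38.p6. Of the probes, 8346 had 1 symbol, 150 several, 8 a number and 4184 none. The probe with the highest mean stood for each of 487 genes with several. Among 243 called genes with several probes, another probe was called the other way for 16.

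The members and lists were chosen with earlier results of these data known. Named genes are the 12 highest and 12 lowest called with no array at the floor, the 6 smallest p in each list, and key genes. Ube2c, Cct3, Npy, Gal, Chga, Elavl3, Cacna2d1, Ctsb and Ucp1, and other list members outside this rule, were chosen after their values were seen. Ret and Odc1 had no named probe. Some genes chosen by the rule are not reported here. The number of arrays limits the precision. Scaling, floor, filter, variance prior, left-out arrays and tumor arrays were varied.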

Additional observations from a re-analysis of the deposited data

Results flagged for a closer look

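Among the 6 small tumors of the first experiment, 1 array stood far below the others for each of 4 muscle genes, on the scale shared by both experiments: specimen 3287S read 11.88 for Tnnc2, 8.79 for Tnnt3, 13.95 for Acta1 and 9.87 for Ckm. Among the 5 day 0 ganglia, replicate 1 stood apart for Th, at 20.82. The gap to the nearest array exceeded Dixon's 95% critical value in each case. Chance gives about 1 such group in 20, and 10 genes were examined in the tumors and 14 in the ganglia, chosen after their values were seen.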

How the results depend on the processing

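Without scaling between arrays, 1067 probes were higher and 953 lower. Fitted on the 4 arrays alone, 3871 were higher. Without day 0 replicates 1 and 2 together, 3264 were higher and 3128 lower, and 3 of the 153 genes followed gained a call. With the first experiment's 6 small tumors, 3829 were higher and 4132 lower. Of the 5043 probes called in the main comparison, 4245 (84.2%) kept their direction with those 6 tumors. There, 3509 of the 5043 were called in the same direction and 342 in the opposite direction, and both comparisons share the day 14 arrays. They also share the specimen numbers 3772S and 3287S, so these counts are no independent replication. Experiment and tissue cannot be told apart with those 6 tumors, and the share that kept its direction over all probes was not computed. With the tumor arrays counted as 1, 1512 were higher. Leaving out each array in turn gave 1521 to 1671 higher and 1750 to 1864 lower. The other alternatives kept both counts within 1.5 times, as did the counts of probes outside all 9 ganglia with arrays centred on their medians or with no floor, the alternatives run for them. Of 153 genes followed, Chgb, Vegfa, Cd79a and Col3a1 changed sign with no scaling (0.0396, 0.0442, 0.0891 and 0.0391). Over the arrays left out in turn Vegfa ranged from -0.62 to 0.30, Cd79a from -0.34 to 0.28, Lck from -0.16 to 0.79, Col1a1 from -0.59 to 0.13 and Col3a1 from -0.50 to 0.14. With the first experiment's tumors the sign changed for Noc2l (-0.23), Phox2a (0.99), Hand2 (0.46), Gata3 (-0.72), Gap43 (0.56), Fasn (-0.36), Hk1 (0.14), Cdkn1a (0.89), Cdkn1c (-1.18), Cct4 (-0.0683) and Col1a1 (2.24). Calls were lost for 33 genes with no scaling, 7 with the first experiment's tumors, 6 with arrays centred on their medians and 1 (Lyve1) with the tumor arrays counted as 1. Leaving out 1 array lost the calls of Lyve1, Egfl7 and Cdkn1a (without 3772S), Cacna2d1 and Myl1 (without 3287S), Ctsb, Lyve1, Psmb9 and Isg15 (without day 14 replicate 1) and Cacna2d1, Egfl7, Cdkn1a and Myl1 (without day 14 replicate 2). The cause was not tested. No paired analysis was possible because the labels give tumors and ganglia different specimen numbers and tie no tumor to a ganglion; the replicate numbers used here follow accession order. Levels near the floor and near the top of the intensity range limit the sizes of differences.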
